A study of Mus musculus with 32 samples.

Results

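The genes described here are 10 members of the inflammasome, pyroptosis and necroptosis pathways: *Nlrp3*, *Pycard*, *Casp1*, *Casp4*, *Gsdmd*, *Il18*, *Casp8*, *Ripk1*, *Ripk3* and *Mlkl*. They were chosen by name, from the row of each deposited count table whose Ensembl identifier maps to the mouse symbol, and all 10 were found among 74021 genes. The 32 libraries come from 3 RNA-seq experiments on the lumbar spinal cord of SOD1G93A mice, which carry a mutant human SOD1 transgene and develop motor neuron disease. In the first, CD11b+/CD45int microglia of P140 SOD1G93A mice were sorted by surface LAG-3 into low (5 libraries) and high (5 libraries) fractions, and microglia of WT mice, whose age was not given in the sources used here, served as controls (4 libraries). In the second, microglia came from LAG-3+/+ or LAG-3-/- animals carrying SOD1G93A, taken at P120 or at P140 (3 libraries for each of 4 groups). In the third, RNA of whole lumbar cord came from the same 2 genotypes, LAG-3+/+ and LAG-3-/- with SOD1G93A, at P140 (3 libraries each). The LAG-3-/- mice carry the Lag3tm1Doi disruption in every cell, so the knockout was not limited to microglia, and every group other than WT carries the transgene.

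The inflammasome is a cytosolic complex in which a sensor such as NLRP3 recruits the adaptor ASC, encoded by *Pycard*, which in turn activates caspase-1. Caspase-1 matures IL-1 family cytokines and cleaves gasdermin D, whose released fragment forms pores in the plasma membrane, a lytic death called pyroptosis. Necroptosis is a separate lytic death in which RIPK1 and RIPK3 lead to phosphorylation of the pore-forming effector MLKL, and caspase-8 restrains it. Much of this control acts on proteins, and transcript levels do not measure it.

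The promoter windows of 3 members are shown because their transcripts moved in opposite directions with stage: *Nlrp3* was lower, and *Casp1* and *Il18* were higher, at P140 than at P120 in LAG-3+/+ microglia. Each window runs from 250 bases before to 50 bases after a RefSeq start, 5′ to 3′ on the plus strand, and matched GRCm39 at a single place (chr11:59432145-59432444 for *Nlrp3*, chr9:5298267-5298566 for *Casp1* and chr9:50465750-50466049 for *Il18*). Capitals mark letters of the searched motifs.
Nlrp3: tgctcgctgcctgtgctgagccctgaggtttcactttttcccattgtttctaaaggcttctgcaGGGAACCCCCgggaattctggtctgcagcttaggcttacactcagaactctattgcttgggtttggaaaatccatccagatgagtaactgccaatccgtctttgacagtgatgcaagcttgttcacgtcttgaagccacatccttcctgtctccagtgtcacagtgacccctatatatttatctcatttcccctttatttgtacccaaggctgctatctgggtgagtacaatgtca
Casp1: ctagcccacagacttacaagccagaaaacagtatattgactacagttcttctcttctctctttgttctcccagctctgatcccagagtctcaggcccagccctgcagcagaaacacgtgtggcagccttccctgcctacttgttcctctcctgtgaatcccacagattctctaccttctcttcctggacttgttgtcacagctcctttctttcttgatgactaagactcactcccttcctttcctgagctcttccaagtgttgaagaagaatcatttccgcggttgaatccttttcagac
Il18: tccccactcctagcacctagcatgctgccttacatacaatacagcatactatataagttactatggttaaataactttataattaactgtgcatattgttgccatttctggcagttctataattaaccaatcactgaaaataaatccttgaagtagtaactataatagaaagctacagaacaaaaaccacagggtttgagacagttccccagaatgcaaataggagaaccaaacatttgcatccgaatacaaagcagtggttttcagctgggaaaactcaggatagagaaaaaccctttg
Both strands were searched for the NF-kB motif, the PU.1-type letters GAGGAAG, the AP-1 letters TGANTCA and the interferon-stimulated response element pair. The *Nlrp3* window shown held the NF-kB motif at -186 from the start. A second RefSeq *Nlrp3* window (chr11:59433262-59433561) held the PU.1-type letters at 2 places and no NF-kB motif. The *Casp1* and *Il18* windows held none of the 4 motifs. Among 32851 windows of the same length, 8.46% held the NF-kB motif, 13.6% the PU.1-type letters, 7.81% the AP-1 letters and 3.44% the interferon-stimulated pair. These matches describe letters only.

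Library totals ranged from 9403475 to 49512632 estimated counts. *Lag3*, the targeted gene, was at 24.5 to 62.9 CPM (library-scaled counts, with TMM factors here and throughout) in the LAG-3+/+ microglia and at 0.0239 to 0.462 CPM in the LAG-3-/- microglia. Some libraries stood apart. All 3 P140 LAG-3+/+ libraries and P140 LAG-3-/- replicate 1 held 18896 to 20489 genes with a count, and the other 8 libraries of that experiment held 23459 to 24942. WT replicates 1 and 4 correlated least with the other libraries of the sort. The microglia markers were high in every sorted library, but neutrophil markers (10 genes) summed to 5972 to 70511 CPM in WT, 22825 to 66376 CPM in LAG-3-low and 3.48 to 9.67 CPM in LAG-3-high. Their part in the results below was not tested. The cord libraries are described as separate mice. For the sorted microglia nothing ties libraries to separate animals, so p-values there measure the spread between libraries, which may be technical.

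From P120 to P140 in LAG-3+/+ microglia, 6 of the 10 members passed the test (adjusted p under 0.1), 4 higher and 2 lower. *Casp1*, *Casp8*, *Pycard* and *Il18* rose, and *Nlrp3* and *Ripk1* fell. Over all genes tested, 27.4% were called in this comparison, 11.9% higher and 15.5% lower, and the median log2 fold change was -0.22 against 0.17 for the members. Without TMM factors 971 genes were called higher and 4120 lower, against 2219 and 2899 with them, and the median was -0.70. The 6 members kept their direction, but 3 of them (*Casp1*, *Nlrp3* and *Ripk1*) were called. The 3 P140 LAG-3+/+ libraries are also those with few genes detected, so stage and detection cannot be told apart within LAG-3+/+ microglia. Across the experiment, the 4 libraries with few genes detected, which include P140 LAG-3-/- replicate 1, held *Casp1* at 153 to 189 CPM, and the other 8 held it at 42.3 to 71.1 CPM. *Pycard* was at 343 to 513 CPM in the 4 and 211 to 279 CPM in the 8, *Casp8* at 248 to 327 and 103 to 181 CPM, *Il18* at 21.0 to 46.2 and 12.5 to 18.3 CPM, and *Nlrp3* at 1.41 to 2.13 and 4.69 to 12.5 CPM. None of these 5 overlapped, and *Ripk1* did, at 12.1 to 65.9 and 44.4 to 74.5 CPM. Of the 4 libraries, 3 are the P140 LAG-3+/+ libraries in which these members were called, so the ranges are not an independent test. The share of all genes that did not overlap in this split was not computed, so the member ranges are not read as particular to the members. The plot of levels by stage and genotype shows each library.

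**Figure D1:**
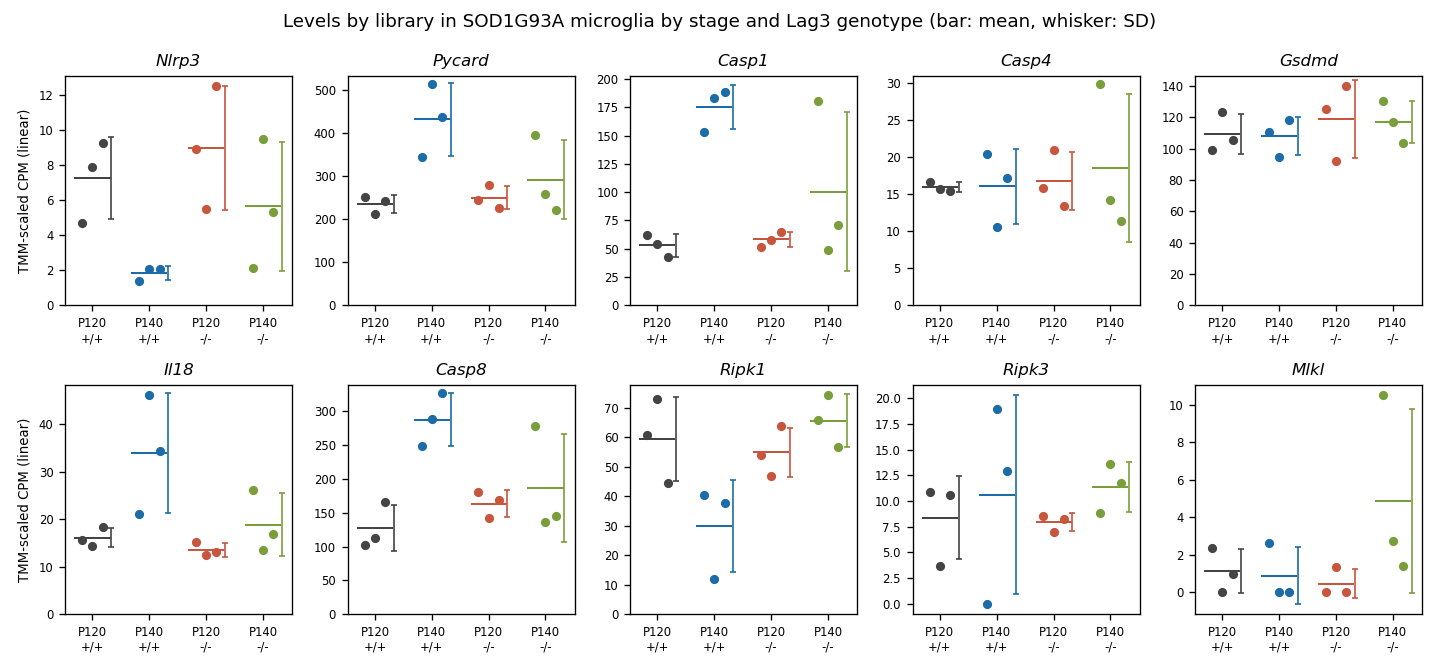
TMM-scaled CPM on linear axes for each member, with a point per library, a line at the mean and a whisker of 1 SD, in 4 groups of 3 SOD1G93A microglia libraries (P120 and P140, LAG-3+/+ and LAG-3-/-). *Casp1* is at 153 to 189 CPM in the P140 LAG-3+/+ libraries and at 42.3 to 62.5 CPM in the P120 LAG-3+/+ libraries, and 1 P140 LAG-3-/- library is at 181 CPM.

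*Nlrp3*, the sensor (ENSMUSG00000032691, GRCm39 chr11:59432394-59457782), was at 4.69, 7.89 and 9.27 CPM in the P120 LAG-3+/+ libraries and at 1.41, 2.05 and 2.08 CPM in the P140 LAG-3+/+ libraries. The groups did not overlap. The log2 fold change was -1.98 ± 0.63 (SE, n = 3 per group, edgeR adjusted p = 0.0481), called in 9 of 12 fits that left out a library. *Pycard*, the adaptor, was at 251, 211 and 243 CPM at P120 and at 343, 513 and 437 CPM at P140. All P140 values lay above all P120 values (log2 fold change 0.88 ± 0.23, edgeR adjusted p = 0.0239). The sensor and its adaptor therefore differed in direction between the stages.

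*Casp1*, the inflammasome protease, was at 62.5, 54.2 and 42.3 CPM at P120 and at 153, 184 and 189 CPM at P140. It rose without overlap (log2 fold change 1.73 ± 0.40, edgeR adjusted p = 0.0146). *Casp4*, the mouse caspase-11 that senses cytosolic lipopolysaccharide, was at 16.7, 15.7 and 15.4 CPM at P120 and at 20.5, 10.5 and 17.1 CPM at P140. Its groups overlapped (log2 fold change 0.01 ± 0.41, edgeR adjusted p = 0.99). *Gsdmd*, the pore-forming substrate of both caspases, was at 99.0, 124 and 106 CPM at P120 and at 111, 94.6 and 119 CPM at P140, which also overlapped (log2 fold change -0.02 ± 0.20). *Il18*, a cytokine matured by caspase-1, was at 15.6, 14.4 and 18.3 CPM at P120 and at 21.0, 46.2 and 34.4 CPM at P140. The *Il18* groups did not overlap (log2 fold change 1.07 ± 0.36, edgeR adjusted p = 0.0581), and the call was kept in 7 of 12 fits that left out a library.

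*Casp8*, the caspase that restrains necroptosis, was at 103, 112 and 167 CPM at P120 and at 248, 288 and 327 CPM at P140 in LAG-3+/+ microglia. Its groups did not overlap either (log2 fold change 1.18 ± 0.29, edgeR adjusted p = 0.0186). *Ripk1*, the kinase that carries death receptor signals, was at 60.7, 73.0 and 44.4 CPM at P120 and at 40.3, 12.1 and 37.7 CPM at P140. Its log2 fold change was -0.98 ± 0.39 (edgeR adjusted p = 0.0986), a call kept in 1 of 12 fits that left out a library. *Ripk3*, its necroptotic partner, was at 10.9, 3.72 and 10.5 CPM at P120 and at 0, 18.9 and 12.9 CPM at P140. *Mlkl*, the necroptotic effector, had no count in 1 of 3 P120 and 2 of 3 P140 libraries and reached 2.62 CPM. Neither *Ripk3* (log2 fold change 0.34 ± 1.19) nor *Mlkl* (-0.34 ± 2.33) passed the test.

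Fold changes in this comparison moved with transcript length. All genes were put into 4 equal bins by canonical transcript length, and the median log2 fold change from the shortest to the longest bin was 0.09, 0.45, -0.28 and -1.04. *Ripk1*, with a canonical transcript of 6736 bases, lay in the longest bin, and its -0.98 was close to that bin's -1.04. *Casp1* and *Il18* lay in the second bin, whose median was 0.45. *Nlrp3*, *Pycard* and *Casp8* lay in the third, whose median was -0.28. With an offset for length and GC content, *Casp1* (0.95), *Casp8* (1.05) and *Pycard* (1.32) were still called, where 19.2% of all genes were called. *Nlrp3* was then at -1.62 (adjusted p = 0.104), *Il18* at 0.36 and *Ripk1* at -0.08, all without a call.

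*Xist*, a transcript of female cells, also moved with stage: it was at 10 CPM or more in 1 of 3 P120 and 3 of 3 P140 LAG-3+/+ libraries. It went against the listed sex in 9 of the 12 stage libraries, and 5 held both *Xist* and Y-linked transcripts at 10 CPM or more, so it does not establish the sex of the animals. With *Xist* status as a covariate, chosen after seeing the data, *Casp1* was the only member called (1.80, adjusted p = 0.0811), where 12.5% of all genes were, and *Casp8* (1.06, adjusted p = 0.105), *Nlrp3* (-2.15, adjusted p = 0.112) and *Pycard* (0.83, adjusted p = 0.125) were not. The neutrophil markers summed to 1743 to 2576 CPM in the P120 LAG-3+/+ libraries and to 3482, 667 and 3.84 CPM in the P140 LAG-3+/+ libraries. Their part in the stage results was not tested.

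**Figure D2:**
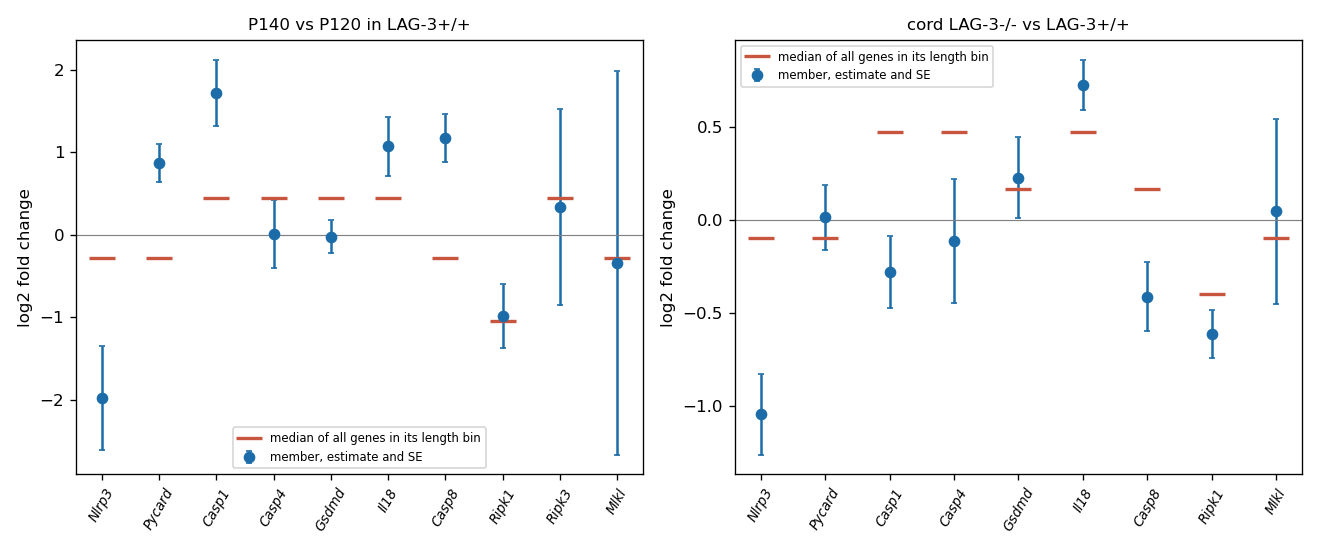
Log2 fold change of each tested member (point, with a whisker of 1 SE) beside the median of all genes in its bin of transcript length (red dash), for P140 against P120 in LAG-3+/+ microglia and for LAG-3-/- against LAG-3+/+ spinal cord. *Ripk1* lies near its bin's median in the microglia (-0.98 and -1.04), and *Nlrp3* lies below it in the microglia and the cord.

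In LAG-3-/- microglia the same stage comparison called 0 of 10 members, and 0% of all genes were called by edgeR (1658 genes had an unadjusted p under 0.05). DESeq2 called 449 of 18669 genes in this comparison. *Casp1* was at 51.8, 57.9 and 65.2 CPM at P120 and at 181, 49.3 and 71.1 CPM at P140 (log2 fold change 0.78 ± 0.39, edgeR adjusted p = 0.603). *Casp8* was at 181, 142 and 168 CPM at P120 and at 279, 136 and 146 CPM at P140. *Nlrp3* was at 8.93, 5.47 and 12.5 CPM at P120 and at 2.13, 9.49 and 5.31 CPM at P140. In these genes P140 LAG-3-/- replicate 1 lay within or near the range of the P140 LAG-3+/+ libraries, and replicates 2 and 3 lay within or near the range of the P120 libraries.

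At P120, LAG-3-/- and LAG-3+/+ microglia showed no called member, with 0.0107% of all genes called by edgeR (551 genes had an unadjusted p under 0.05). DESeq2 called 134 of 18669 genes in this comparison. The members' log2 fold changes ran from -1.30 ± 2.37 for *Mlkl* to 0.36 ± 0.29 for *Casp8*. The neutrophil markers differed with genotype at P120, summing to 1743 to 2576 CPM in LAG-3+/+ and 2.68 to 6.58 CPM in LAG-3-/- libraries. Their part in this comparison was not tested. At P140, 0 of 10 members were called, with 10.2% of all genes called by edgeR, and 4 members had an unadjusted p under 0.05. These were *Ripk1* (1.13 ± 0.39, edgeR adjusted p = 0.114), *Nlrp3* (1.61 ± 0.62, adjusted p = 0.147), *Pycard* (-0.57 ± 0.23, adjusted p = 0.166) and *Il18* (-0.85 ± 0.36, adjusted p = 0.179). *Ripk1* was at 65.9, 74.5 and 56.6 CPM in the LAG-3-/- libraries, all above the 40.3, 12.1 and 37.7 CPM of the LAG-3+/+ libraries, and *Nlrp3* did not overlap either. The longest bin of transcripts, which holds *Ripk1*, had a median of 0.78 here.

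The P140 comparison depended on single libraries. Without P140 LAG-3-/- replicate 2 or 3, edgeR called 95 or 151 of all genes in place of 1908, and a fit of the compared groups alone called 0 of 15091 (2407 had an unadjusted p under 0.05), each with 0 members. Without P140 LAG-3-/- replicate 1, 5 members were called, with 20.2% of all genes called: *Casp1* (-1.54, adjusted p = 0.00359), *Casp8* (-1.03, adjusted p = 0.0171), *Pycard* (-0.84, adjusted p = 0.0172), *Nlrp3* (2.01, adjusted p = 0.0424) and *Il18* (-1.16, adjusted p = 0.0637). DESeq2 with all libraries also called 5, where 22.9% of all genes were, with *Ripk1* (1.06, adjusted p = 0.0432) in place of *Casp1*. The test of whether the stage effect differed by genotype called 0 of 10 members, with 0.171% of all genes called by edgeR. That share depends on the method, since edgeR called 32 of 18669 genes in this test and DESeq2 called 1301. The smallest adjusted p values among the members were 0.325 for *Casp8* (-0.99 ± 0.41) and 0.347 for *Ripk1* (1.24 ± 0.54), and their unadjusted p values were 0.0333 and 0.0426. Without P140 LAG-3-/- replicate 1, *Casp1* (-1.67), *Casp8* (-1.39) and *Pycard* (-0.93) were called in it, with 8.35% of all genes called.

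Comparing the high with the low sort, edgeR called 0 of 10 members, against 3.49% of all genes. That share is from a fit that includes the WT libraries, with 576 of 16508 genes called. A fit of the 2 sorts alone called 1450 of 14651 genes, and DESeq2 called 988 of 16508. The lack of a called member therefore does not show that the members are alike in the 2 sorts. A call here also needed an absolute log2 fold change above 1. *Pycard* was the only member with an unadjusted p under 0.05. It was at 178, 188, 180, 184 and 253 CPM in LAG-3-low and at 269, 245, 262, 328 and 319 CPM in LAG-3-high (log2 fold change 0.53 ± 0.20, edgeR adjusted p = 0.225). The groups overlapped, since 1 LAG-3-low library lay above 1 LAG-3-high library. *Casp1* was at 54.6 to 65.7 CPM in LAG-3-low and at 53.8 to 67.2 CPM in LAG-3-high (0.05 ± 0.26), and *Gsdmd* was at 80.8 to 130 CPM and at 73.6 to 102 CPM (-0.31 ± 0.34).

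**Figure D3:**
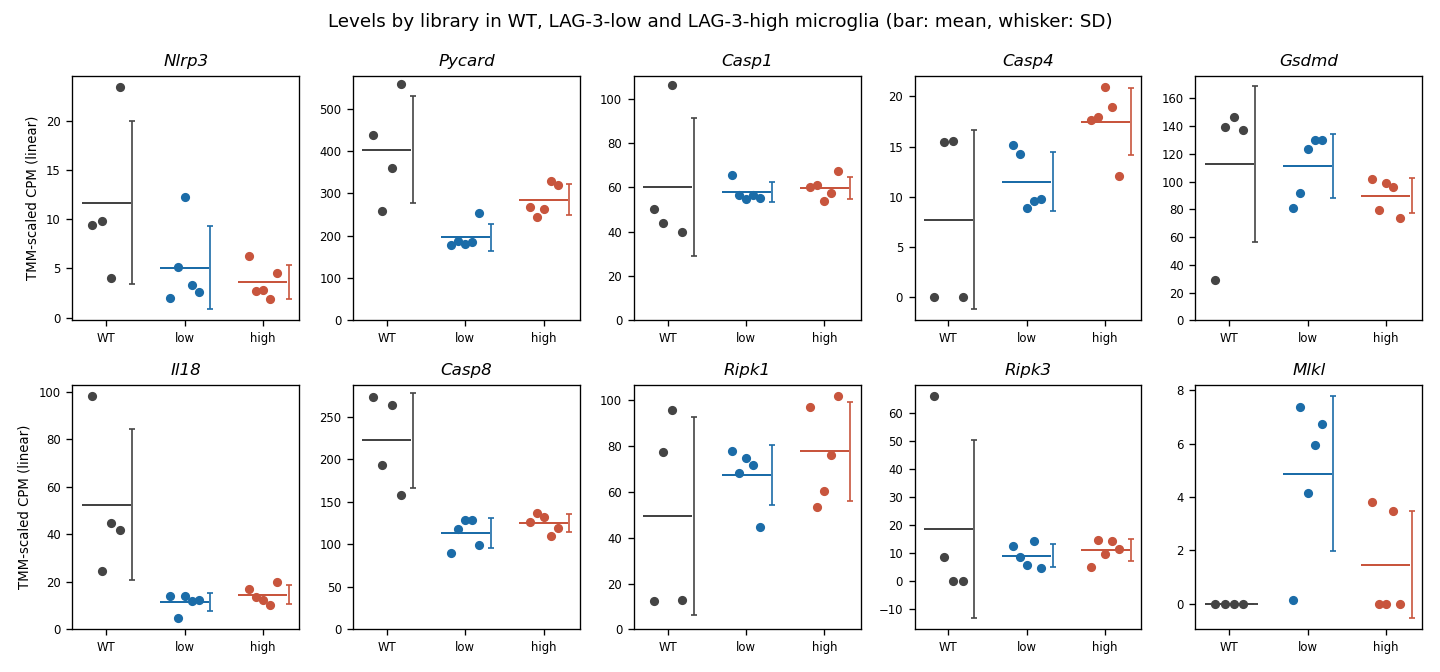
TMM-scaled CPM on linear axes for each member, with a point per library, a line at the mean and a whisker of 1 SD, in microglia of WT (4 libraries) and of the low (5) and high (5) LAG-3 sorts. *Il18* is at 24.7 to 98.2 CPM in WT and at 4.76 to 20.1 CPM in the sorted SOD1G93A libraries, and *Mlkl* has no count in WT.

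Against WT, 3 of 10 members were called in LAG-3-low microglia, with 21.9% of all genes called, and 3 of 10 in LAG-3-high microglia, with 27% of all genes called. Both comparisons share the WT libraries. *Il18* was at 98.2, 24.7, 44.9 and 41.7 CPM in WT, at 13.9, 4.76, 14.1, 12.1 and 12.2 CPM in LAG-3-low and at 16.8, 13.7, 12.3, 10.1 and 20.1 CPM in LAG-3-high. Every SOD1G93A library lay below every WT library (log2 fold change -2.20 ± 0.45, edgeR adjusted p = 0.00568, and -1.84 ± 0.45, adjusted p = 0.0106). *Pycard* was at 437, 260, 360 and 558 CPM in WT and fell in LAG-3-low (-1.04 ± 0.21, edgeR adjusted p = 0.00501) with no overlap. In LAG-3-high *Pycard* was at -0.50 ± 0.21, under the fold minimum. Fold changes against WT also moved with transcript length. The shortest bin, up to 1329 bases, had a median of -0.63 in LAG-3-low and -0.93 in LAG-3-high. The second bin had 0.03 and -0.04, and it holds *Il18*, whose canonical transcript has 1356 bases. The third bin, which holds *Pycard*, *Casp8*, *Nlrp3* and *Mlkl*, had 0.28 and 0.24.

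*Mlkl* had 0 counts in all 4 WT libraries. It was at 0.138, 7.38, 4.14, 5.96 and 6.76 CPM in LAG-3-low and at 3.83, 0, 0, 3.48 and 0 CPM in LAG-3-high. Set against a floor of 3 counts in each WT library, the LAG-3-low mean was at least 25.2-fold higher and the LAG-3-high mean at least 7.55-fold higher (edgeR adjusted p = 0.0345 and 0.0516), but 3 of 5 LAG-3-high libraries also had 0 counts. *Nlrp3* was at 9.43, 9.76, 4.07 and 23.4 CPM in WT and at 6.25, 2.67, 2.83, 1.92 and 4.51 CPM in LAG-3-high. Its call there (-1.68 ± 0.70, edgeR adjusted p = 0.0993) came with overlapping groups.

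*Casp8* was at 273, 193, 264 and 158 CPM in WT and at 89.3 to 137 CPM in the 10 SOD1G93A libraries, with no overlap. Its log2 fold changes of -0.98 ± 0.20 (edgeR adjusted p = 0.00533) and -0.83 ± 0.20 (adjusted p = 0.00929) fell under the fold minimum. With no fold minimum, 4 members were called in LAG-3-low, where 24.9% of all genes were, and 5 in LAG-3-high, where 30.3% were. *Casp4*, *Ripk1* and *Ripk3* spread widely in WT: *Casp4* was at 0.051, 15.4, 15.5 and 0 CPM, *Ripk1* at 12.4, 77.3, 95.5 and 12.8 CPM, and *Ripk3* at 65.9, 8.63, 0 and 0 CPM. WT replicates 1 and 4 were the low libraries for *Casp4* and *Ripk1*. Without these 2 libraries, a choice made after seeing the data, *Il18* was the only member called in LAG-3-low (-1.51, with 12.9% of all genes called) and in LAG-3-high (-1.20, with 19.4%), and the *Mlkl* adjusted p was 0.122 and 0.158.

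In the spinal cord, where microglia are a minority of the cells, 9 of the 10 members passed the filter on low counts, and *Ripk3* did not, at 0.25 to 0.858 CPM. *Nlrp3* was the 1 member called between LAG-3-/- and LAG-3+/+ cord, with 7.52% of all genes called. It was at 3.37, 3.48 and 4.10 CPM in LAG-3+/+ and at 1.66, 1.74 and 1.901 CPM in LAG-3-/- cord, with no overlap (log2 fold change -1.04 ± 0.22, edgeR adjusted p = 0.00329). *Il18* went the other way, at 9.17, 9.63 and 10.03 CPM and at 17.9, 15.7 and 14.2 CPM, and passed the p threshold under the fold minimum (0.73 ± 0.13, edgeR adjusted p = 0.00183).

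**Figure D4:**
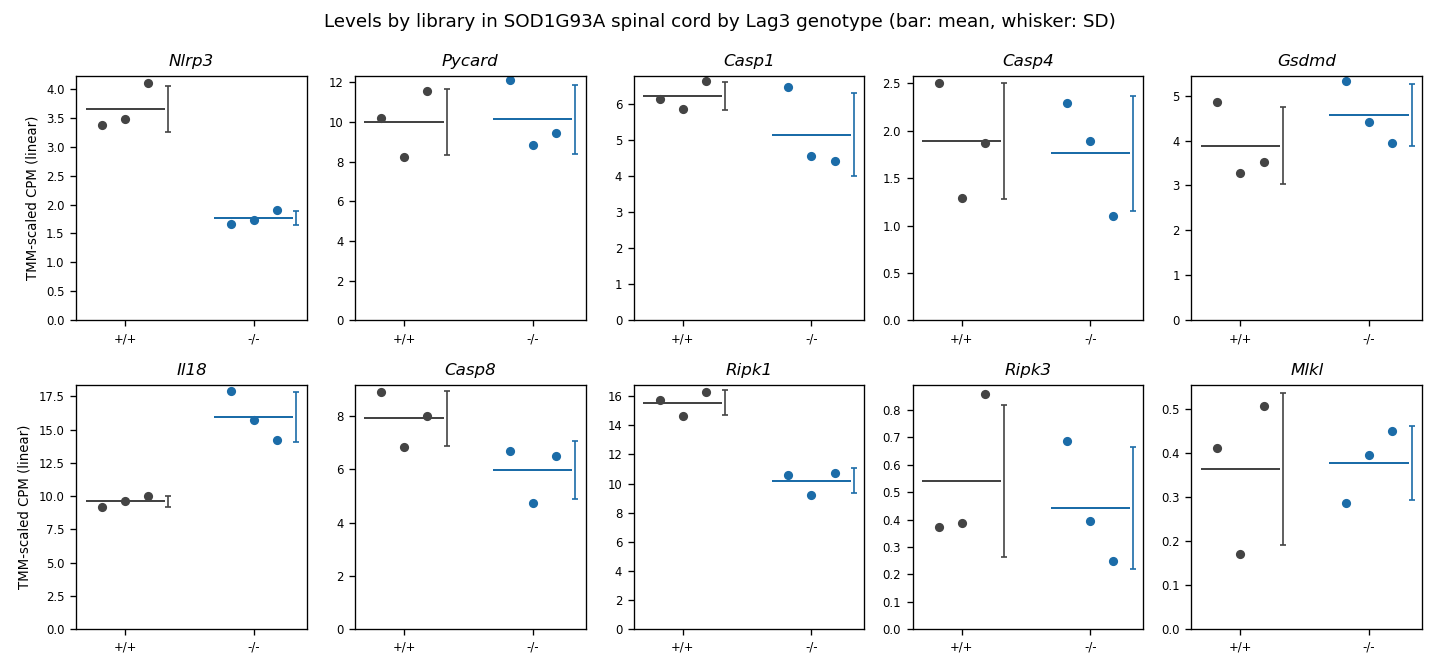
TMM-scaled CPM on linear axes for each member, with a point per library, a line at the mean and a whisker of 1 SD, in 3 LAG-3+/+ and 3 LAG-3-/- spinal cord libraries at P140. *Nlrp3* and *Ripk1* are lower and *Il18* is higher in every LAG-3-/- library.

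*Ripk1* was at 15.7, 14.6 and 16.3 CPM in LAG-3+/+ cord and at 10.6, 9.19 and 10.8 CPM in LAG-3-/- cord (-0.61 ± 0.13, edgeR adjusted p = 0.0036). With no fold minimum 3 members were called, where 47.1% of all genes were. Length moved with genotype here too, with a median of 0.47 in the shortest bin, which holds *Il18*, and -0.40 in the longest, which holds *Ripk1*. With the length and GC offset *Nlrp3* was at -0.93 (adjusted p = 0.0119), *Il18* at 0.50 (adjusted p = 0.0141) and *Ripk1* at -0.15 (adjusted p = 0.425). *Casp8* did not overlap either, at 6.84 to 8.91 CPM and at 4.74 to 6.69 CPM, but missed the p threshold (-0.41 ± 0.19, edgeR adjusted p = 0.105). *Xist* was at 10 CPM or more in 3 of 3 LAG-3+/+ and 1 of 3 LAG-3-/- cord libraries, and with *Xist* status as a covariate *Nlrp3* was still called (-1.13, adjusted p = 0.0245).

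In whole cord, fewer cells of a type and less RNA per cell cannot be told apart. The 6 microglia markers summed to 1093 to 1372 CPM in LAG-3+/+ and to 775 to 1054 CPM in LAG-3-/- cord, with none at 0. The 4 astrocyte markers summed to 12245 to 14081 CPM in LAG-3+/+ and to 7062 to 11531 CPM in LAG-3-/- cord. The 3 oligodendrocyte markers summed to 13644 to 14912 CPM and to 19586 to 27442 CPM. None of these 3 sums overlapped between the genotypes. The endothelial sum (117 to 124 and 90.7 to 101 CPM) and the erythroid sum (6.24 to 19.0 and 19.1 to 102 CPM) did not overlap either. The neutrophil, monocyte and border macrophage, T and NK cell, B cell and neuron sums did. The part of these markers in the results was not tested. Per 1000 CPM of the microglia markers, *Nlrp3* was at 2.51, 3.19 and 2.99 CPM in LAG-3+/+ and at 1.57, 2.24 and 2.06 CPM in LAG-3-/- cord, with no overlap. On the same scale *Ripk1* overlapped, at 11.7, 13.4 and 11.9 CPM and at 10.04, 11.9 and 11.6 CPM. *Il18* was at 6.83, 8.82 and 7.31 CPM and at 17.0, 20.3 and 15.4 CPM. This scale does not give a level per microglial cell. Sorted P140 LAG-3+/+ microglia held the markers at 32580 to 38963 CPM, and their *Nlrp3* CPM lay below that of LAG-3+/+ cord. Microglia and cord libraries were made with different kits and scaled in separate fits. Their CPM levels are therefore not on a shared scale, and the source of the cord *Nlrp3* was not tested. Between genotypes in P140 microglia the log2 fold changes had the opposite sign (*Nlrp3* 1.61, *Il18* -0.85, *Ripk1* 1.13), without a call.

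Levels were compared between members only per kilobase of canonical transcript. In P120 LAG-3+/+ microglia the order was *Pycard* (57.0 ± 5.12 CPM per kb, SD, n = 3), *Gsdmd* (55.4 ± 6.46), *Casp8* (46.4 ± 12.5), *Casp1* (34.6 ± 6.64), *Il18* (11.9 ± 1.44), *Casp4* (11.1 ± 0.465), *Ripk1* (8.81 ± 2.13), *Ripk3* (4.42 ± 2.13), *Nlrp3* (1.81 ± 0.584) and *Mlkl* (0.265 ± 0.282). From *Pycard* to *Casp1* each neighbouring pair differed by less than the larger SD of the pair, as did *Il18* and *Casp4*. With the union of all exons as length, *Casp1* was at 16.9 and *Casp4* at 3.04 CPM per kb, so their places depend on the transcript used. The executioner *Mlkl* and the sensor *Nlrp3* were the lowest members in this group on either length.

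The wider pathway was read from 5 lists of 67 genes. From P120 to P140 in LAG-3+/+ microglia, 11 of 62 tested rose and 15 fell, beside 11.9% and 15.5% of all genes, with a median log2 fold change of -0.35 beside -0.22. The count of list genes called ran from 13 to 29 when 1 library was left out, lowest without P120 LAG-3+/+ replicate 1 or 3 (13 each). Of the inflammasome sensors and regulators 1 of 10 rose and 5 fell, and of the pyroptosis substrates, rupture and guanylate-binding proteins 4 of 10 rose and 0 fell. Of the death receptor and RIPK complexes 2 of 23 rose and 7 fell, of the apoptosis genes 4 of 14 rose and 3 fell, and of the 5 IL-1 and IL-18 receptors 0 were called. Fold changes of all genes moved with transcript length in this comparison, with medians of 0.09, 0.45, -0.28 and -1.04 from the shortest to the longest bin. The list counts given here are not corrected for length. *Ninj1*, which ruptures the membrane after pore formation, rose (1.24 ± 0.25, edgeR adjusted p = 0.00895), as did the pro-apoptotic *Bax* (1.19 ± 0.23, adjusted p = 0.0084), and *Naip2*, a sensor of bacterial secretion proteins, fell (-2.08 ± 0.36, adjusted p = 0.00618). *Tnf*, a ligand upstream of RIPK1, rose (2.33 ± 0.61, adjusted p = 0.024), and *Il1b*, the other cytokine matured by caspase-1, did not pass (-0.18 ± 0.84, adjusted p = 0.912). Between genotypes at P140, 5 list genes were higher and 1 was lower in LAG-3-/-, among them *Naip2* (1.69 ± 0.35, adjusted p = 0.0331), beside 10.2% of all genes called. That count ran from 0 without P140 LAG-3-/- replicate 2 or 3 to 21 without replicate 1. The longest bin of transcripts had a median of 0.78 between genotypes at P140. With all libraries 0 list genes were called in the other stage comparisons.

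In the sort, 1 of 64 tested list genes rose and 2 fell from the low to the high sort, beside 3.49% of all genes called, and leaving out 1 library gave 3 to 6 calls (6 without WT replicate 4). *Ninj1* rose (1.25 ± 0.25, edgeR adjusted p = 0.0122). Those that fell were *Nlrp12* and the decoy receptor *Il1r2*. The neutrophil markers moved the same way, from 22825 to 66376 CPM down to 3.48 to 9.67 CPM, and their part in these 2 results was not tested. Against WT, 11 rose and 3 fell in LAG-3-low, beside 21.9% of all genes called, and 9 rose and 8 fell in LAG-3-high, beside 27%. *Il1b* rose in both (3.58 ± 1.21, adjusted p = 0.0562, and 3.47 ± 1.21, adjusted p = 0.0536), and *Txnip*, a binding partner of NLRP3, fell in both (-1.36 ± 0.25, adjusted p = 0.00288, and -1.89 ± 0.25, adjusted p = 0.000148). In the cord 0 of 61 rose and 3 fell, beside 7.52% of all genes called, among them the receptor gene *Il1r1* (-1.01 ± 0.19, adjusted p = 0.00237). The cord list count ran from 0 (without LAG-3+/+ replicate 1 or 3 or LAG-3-/- replicate 3) to 7 (without LAG-3+/+ replicate 2), and *Il1r1* lost its call in 4 of 6 such fits.

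As a description, the genes whose log2 CPM followed *Nlrp3* most closely over the 12 stage libraries were *Ptpre* (Pearson r = 0.97), *Ikzf1* (0.96) and *Madd* (0.96), and over the 14 sort libraries *Slc10a7* (0.87). *Il18* was most like *Nop58* (0.98) over the stage libraries and *Derl2* (0.95) over the sort libraries. *Gsdmd* was most like *Cd164* (0.91) and *Sla* (0.95), and *Mlkl* most like *Plk1* (0.92) and *Oas3* (0.79). These points share library depth and the number of genes detected.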

How the data were processed

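Sorted microglia were turned into full-length cDNA libraries with a SMART-seq low-input kit, and cord RNA into stranded libraries. The authors trimmed reads with Trim Galore 0.6.7, quantified them with Salmon 1.9.0 against GRCm39 and imported them with tximport in R 4.2.1, and they deposited estimated counts per Ensembl gene, not normalized. The annotation release is not given in the sources used here. The 10 members and the lists were chosen with earlier results of these data known.

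Counts were rounded and named with GENCODE M39 (66 to 71 identifiers absent, at most 0.0514% of counts). Each table was fitted on its own in edgeR 4.0.16 (R 4.3.3): filterByExpr (minimum count 10, minimum total 15), TMM factors and the robust quasi-likelihood test, adjusted by Benjamini-Hochberg across 16508 (sort), 18669 (stage) and 17702 (cord) genes. Calls needed an adjusted p under 0.1, and for the sort and cord also a log2 fold change of more than 1 either way. The study used DESeq2; here DESeq2 1.42.0 is an alternative. Other alternatives were RLE factors, no TMM, other filters and thresholds, sex, a replicate block, a length and GC offset (natural splines, 5 degrees of freedom), fits of the compared groups alone and each replicate left out. The SE of an edgeR log2 fold change is its absolute value divided by the square root of the F statistic. Each SD is between libraries. On simulated data with 200 genes changed 4-fold, edgeR recovered 54% in LAG-3-high vs LAG-3-low (15840 genes), 67% in P140 vs P120 in LAG-3+/+ (17836 genes) and 99.5% in the cord (17482 genes). The changed genes were drawn from those with a mean above 10 CPM, and dispersions were capped at 4. These rates therefore do not cover smaller folds or members at lower levels.

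Named genes were the 10 members, *Il1b* and *Tnf*, and the called list genes with the 3 smallest adjusted p per comparison, of which the text gives a selection. The most alike genes were ranked by Pearson r of log2 CPM (prior count 2) among genes with a mean of at least 10 CPM. Listed sex and *Xist* differed in 9 of 12 stage and 2 of 6 cord libraries, so *Xist* status was added as a covariate after seeing the data. Groups came from the sample titles.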

Additional observations from a re-analysis of the deposited data

Results flagged for a closer look

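Of 29 group tests of a lone extreme library (a gap to its neighbour too large for the group's range by Dixon's 95% value), 6 were past the limit, where chance gives about 1 in 20. In WT these were *Casp1* (gap share 0.846, 1 library at 106 CPM and the others at 39.9 to 50.1 CPM), *Gsdmd* (0.922, 1 library at 28.9 CPM and the others at 137 to 147 CPM) and *Ripk3* (0.869, 1 library at 65.9 CPM and the others at 0 to 8.63 CPM). In LAG-3-low they were *Pycard* (0.865, 1 library at 253 CPM), *Casp1* (0.81, 1 library at 65.7 CPM) and *Il18* (0.784, 1 library at 4.76 CPM). The low *Gsdmd* value and the high *Ripk3* value are both WT replicate 1, 1 of the libraries that stood apart in the sort.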

How the results depend on the processing

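Counts are of the 10 members called. P140 vs P120 in LAG-3+/+ (6) fell to 3 without TMM factors, with no low count filter and with the length and GC offset, and to 1 with *Xist* status as a covariate. Over all genes, 5118 of 18669 were called as reported and 5091 of 18669 without TMM factors. With no low count filter 3903 of 38695 were called, with the offset 3574 of 18660 and with *Xist* status 2326 of 18669. LAG-3-/- vs LAG-3+/+ at P140 (0) became 2 without TMM factors and 5 in DESeq2. Of all 18669 genes, 1908 were called as reported, 2291 without TMM factors and 4281 in DESeq2. LAG-3-high vs WT (3) became 1 at an adjusted p under 0.05, in a fit of the compared groups only, and without WT replicates 1 and 4, and 5 with no minimum fold. Over all genes, calls went from 4464 of 16508 to 3235 of 16508, 2663 of 14374, 3600 of 18594 and 5006 of 16508, in that order. LAG-3-low vs WT (3) became 1 without WT replicates 1 and 4, where calls over all genes went from 3614 of 16508 to 2399 of 18594. The cord count (1) became 3 with no minimum fold and 0 with the length and GC offset. Over all genes, cord calls went from 1331 of 17702 to 8330 of 17702 and 808 of 17695. The cause of each change was not tested.

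Leaving out 1 library gave 3 to 5 members for P140 vs P120 in LAG-3+/+ (3 without P120 LAG-3+/+ replicate 2 or 3), 0 to 5 for the genotypes at P140 (2 without P140 LAG-3+/+ replicate 1 and 5 without P140 LAG-3-/- replicate 1), 0 to 3 for the interaction (3 without P140 LAG-3-/- replicate 1) and 0 to 1 for the cord (0 without LAG-3+/+ replicate 3). In the named fits, calls over all genes were 3218 of 20114 and 3283 of 20034 for the stages. They were 2609 of 20490 and 4140 of 20508 for the genotypes, 1713 of 20508 for the interaction and 1309 of 18120 for the cord. No fold of a member or named list gene with an unadjusted p under 0.05 changed sign under any alternative run.

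Same-numbered libraries did not deviate together (correlations -0.12 to 0.067), so replicate numbers were not taken as pairs. With a replicate block, LAG-3-high vs WT had 1 call and P140 vs P120 in LAG-3+/+ had 5, and the other counts did not change. Over all genes, 3009 of 16508 and 4429 of 18669 were called in these 2 comparisons. The median of all genes in P140 vs P120 in LAG-3+/+ was -0.22, and -0.70 without TMM factors. *Mlkl* and *Ripk3* had 0 counts in several libraries, and the cause was not tested.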
